A study of Canis lupus familiaris with 8 samples.

Results

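Star CSC were compared with Star parent cells across every canine miRNA on the array. CMT-Star (Star) is a canine mammary adenocarcinoma cell line that was derived from the line CMT-Stylo (Stylo) by culture in rising doxorubicin, an anthracycline chemotherapy drug, until it was resistant at 100 nM. Star CSC are cells sorted from Star by flow cytometry as CD44+, CD24-/low and ALDH+ (aldehyde dehydrogenase activity), and the labels call them cancer stem cells. Star parent is the unsorted line. Both groups are labelled doxorubicin treated. The labels do not say whether the drug was in the medium at harvest, and both groups come from 1 resistant line. The comparison uses 4 of the series' 8 arrays, 2 for Star CSC and 2 for Star parent, chosen by those labels alone, and all 454 canine miRNAs on them. The series also holds Stylo CSC and Stylo parent cells, labelled non treated, which enter only the comparison between lines near the end. Nothing in the labels states that the 2 samples of a group were separate cultures or sorts, so the spread behind each p-value may be technical.

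MicroRNAs are short RNAs that pair through their seed, a stretch near the 5′ end, with messenger RNAs and lower their translation or stability. Members of a family share the seed and so many targets, and miRNAs of a genomic cluster are often cut from a common primary transcript. In human breast cancer models the let-7 and miR-200 families are known for restraining self-renewal, and miR-22 for promoting a stem-like state by targeting TET enzymes.

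The array carries no probe for the proteins used in the sort, so the sort itself could not be checked here. For 405 of the 454 miRNAs no Star array had signal well above background, meaning that no probe had over 50% of its spots so called by the scanner software. Signal passed this mark for 49 and 43 miRNAs on the Star CSC arrays, against 35 and 40 on the Star parent arrays, and such miRNAs are called measured. The 44 miRNAs measured on both arrays of at least 1 group were tested, and 34 of them were measured on all 4 arrays. Signals below are scaled, so that 1 stands for the 75th percentile of the array's 51 probes that were measured on every one of the 4 arrays. Replicates correlated at r = 0.999 in Star CSC and 0.997 in Star parent over the 34 miRNAs, and arrays of different groups at 0.943 to 0.948.

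The Star CSC arrays were brighter before scaling. The summed signal of the detected miRNAs was 13884 and 12112 intensity units in Star CSC, against 7758 and 7634 in Star parent, a ratio of 1.69, although 100 ng of RNA was labelled for each sample. The labelling spike-ins averaged 3.17 in Star CSC and 3.24 in Star parent on the log10 scale. The first hybridisation spike-in was at 4.13 on each Star CSC array, against 4.20 and 4.22 in Star parent. The second was at 3.10 and 3.12 in Star CSC, against 3.20 and 3.19 in Star parent. Mentions of the spike-ins below are of the labelling ones. Without scaling the median log2 change of the 44 miRNAs was 0.58, with scaling to the spike-ins 0.79, and with the scaling used here −0.04. A change below is therefore relative to the 75th percentile of the array's 51 scaling probes. On the Star CSC arrays it lay between probes of miR-34a and let-7e, and on the Star parent arrays between probes of miR-331 and miR-34a. These miRNAs are themselves tested, so the scaling partly sets their replicate spread. Over the 34 miRNAs measured on all 4 arrays the median change was −0.18, so 0 is not the middle of every set. Whether the cells held more miRNA per unit of total RNA or the arrays labelled or hybridised differently was not tested. All 4 arrays lay on 1 slide in the same row, the Star CSC arrays next to each other and the Star parent arrays next to each other, so position and group cannot be told apart.

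With this scaling, miR-22, miR-125b, miR-29a and miR-193a were lower in Star CSC than in Star parent. The 6 measured let-7 members, miR-15b and miR-34a were higher. In all, 32 of the 44 tested miRNAs (72.7%) passed an adjusted p of 0.05 (limma, Benjamini-Hochberg), 16 higher (36.4%) and 16 lower (36.4%) in Star CSC. The values of the 2 groups did not overlap for 36 of 44 (81.8%), with Star CSC higher in 17 (38.6%) and lower in 19 (43.2%). The changes were small: 2 of 44 (4.55%) reached a fold of 2, miR-22 and miR-92a, and for miR-92a this is a distance to the floor, the lowest scaled signal given to any miRNA (0.174). With scaling over all probes limma called 0, while 6 had p below 0.05 before adjustment. There the 75th percentile lies among dim probes, since 5.94% to 8.78% of an array's canine spots were well above background. The standard error for let-7a was 0.69, against 0.03 with the scaling used here. Without scaling 31 passed, 30 higher and 1 lower. The split by direction was 37 higher and 1 lower with the spike-ins, 17 and 10 with quantile normalization, 7 and 32 with normexp background correction, 8 and 25 in the software's own totals and 8 and 17 in the deposited value table. These are the 8 scalings named below. With normexp the median log2 change of the 44 miRNAs was −0.28, so a value below 0 there can still lie above that median. With all distinct arrays of Stylo added to the fit, 1 miRNA passed (miR-31). On slide 1 miR-31 lay at the floor on every array but those of Star CSC, so that call holds little measured spread. With only the Stylo arrays of slide 1 added 32 passed, 30 of them among the 32 calls above.

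**Figure D1:**
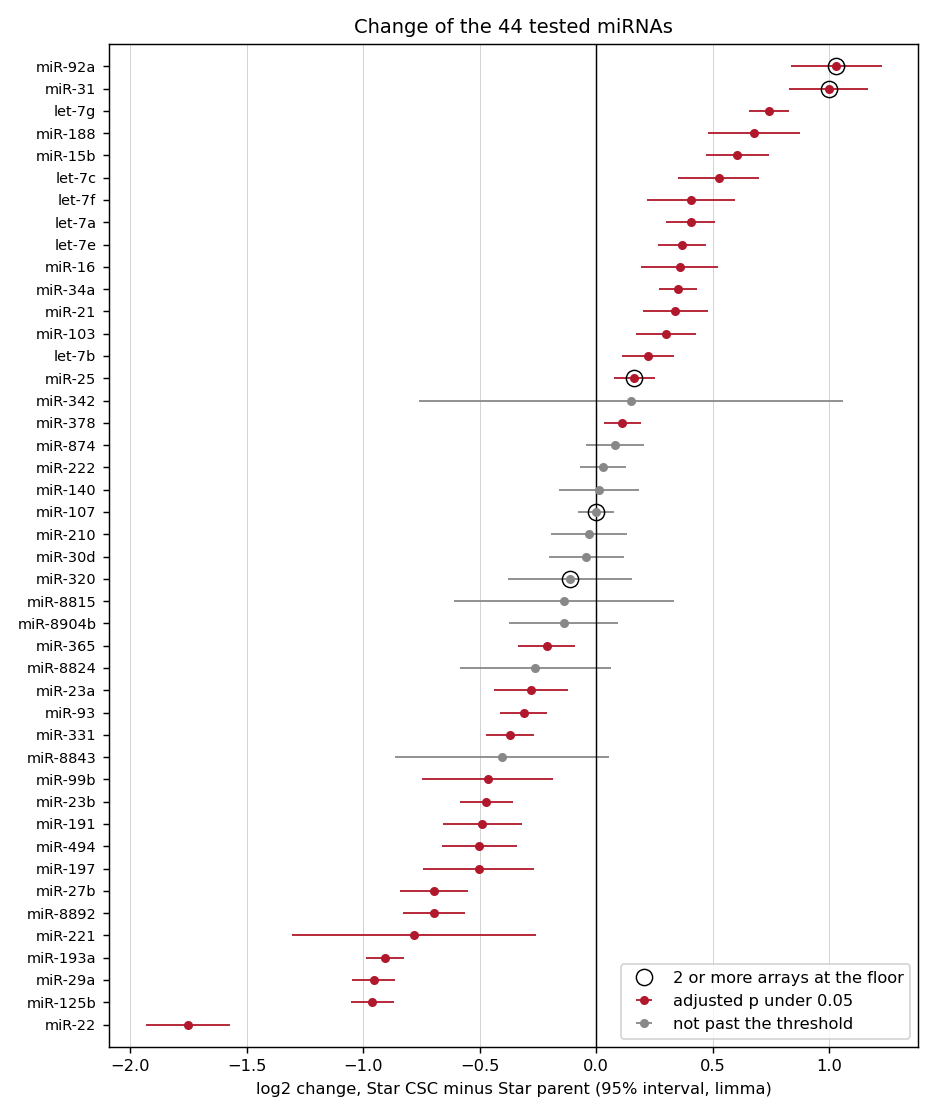
Log2 change of each of the 44 tested miRNAs, Star CSC minus Star parent, with limma's 95% interval. Red points passed the adjusted p of 0.05, grey points did not, and rings mark miRNAs with 2 or more of the 4 arrays at the floor. MiR-22 lies apart at −1.75, and the others lie between −0.96 and 1.03.

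The largest difference was the fall of miR-22. Its scaled signal was 0.241 and 0.236 on the Star CSC arrays, against 0.843 and 0.766 on the Star parent arrays. Both Star CSC arrays were far below both Star parent arrays, with a log2 change of −1.75 ± 0.06 (SE, n = 2 each; limma, adjusted p = 0.000384), or 3.37-fold lower. MiR-22 was negative under all 8 scalings and lay at −1.72 relative to the median of the tested miRNAs with the scaling used here. It is the 1 fall that also passed without scaling.

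MiR-125b, miR-29a and miR-193a fell by similar amounts. MiR-125b, a homologue of lin-4 that targets ERBB2 and ERBB3 in human cells, had scaled signals of 2.01 and 2.04 in Star CSC, against 3.99 and 3.89 in Star parent (log2 change −0.96 ± 0.03; limma, adjusted p = 0.000384). MiR-29a, which targets collagen and DNA methyltransferase transcripts, had 0.396 and 0.406 in Star CSC, against 0.784 and 0.770 in Star parent (−0.96 ± 0.03). MiR-193a, a tumour suppressor silenced in several human cancers, had 0.207 and 0.204 in Star CSC, against 0.385 in each Star parent array (−0.91 ± 0.03). In all 3 the replicates lay close together and the groups were well separated. These 3 and miR-22 were the 4 of 16 falls that were negative under all 8 scalings. With the spike-ins, however, miR-125b, miR-29a and miR-193a lay near 0 (−0.08, −0.08 and −0.03). With scaling over all probes they were at −0.06, −0.05 and −0.0002.

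**Figure D2:**
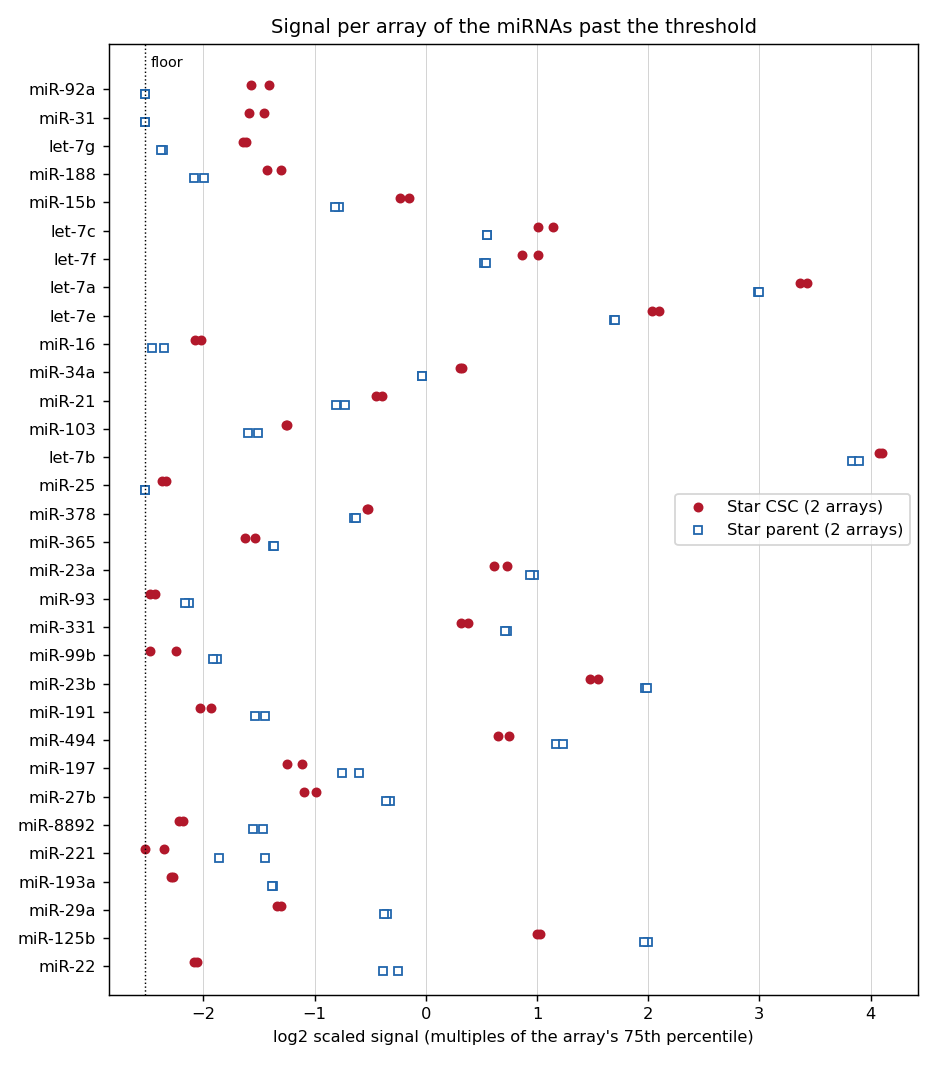
Scaled signal on a log2 scale of the 32 miRNAs past the threshold, with 1 point per array (filled red circles Star CSC, open blue squares Star parent) and the floor as a dotted line. In each of the 32 miRNAs the 2 Star CSC points lie on 1 side of the 2 Star parent points.

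In the miR-23/27/24 clusters the measured miRNAs fell, 3 of 3 tested of 5 on the array, where 36.4% of all tested miRNAs fell and 72.7% passed (median log2 change −0.47, against −0.04 over all tested miRNAs). MiR-23b had scaled signals of 2.78 and 2.92 in Star CSC, against 3.93 and 3.98 in Star parent (−0.47 ± 0.04; limma, adjusted p = 0.00219). Its neighbour miR-27b had 0.469 and 0.503 in Star CSC, against 0.798 and 0.779 in Star parent (−0.70 ± 0.05). MiR-23a, from the paralogous cluster, had 1.53 and 1.66 in Star CSC, against 1.96 and 1.92 in Star parent (−0.28 ± 0.05), and its call was lost without either Star parent array. The groups did not overlap in any of the 3, as in 81.8% of all tested miRNAs. Yet all 3 were above 0 with the spike-ins (0.40, 0.18 and 0.60), so that they fell relative to other miRNAs and not on every scale.

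MiR-221 and miR-222, which target the cell cycle inhibitor CDKN1B and lie beside each other in the genome, differed. MiR-221 had scaled signals of 0.196 and 0.173 in Star CSC, against 0.368 and 0.275 in Star parent, with the widest replicate gap among miRNAs measured on all 4 arrays (−0.78 ± 0.18; limma, adjusted p = 0.0231). The second Star CSC value lay at the floor, and the call was lost without either Star CSC array. MiR-222 had 0.487 and 0.479 in Star CSC, against 0.481 and 0.465 in Star parent. Its log2 change of 0.03 (95% interval −0.07 to 0.13) did not pass, and its groups overlapped.

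Other falls were between −0.70 and −0.21. MiR-8892, numbered in dog, had scaled signals of 0.214 and 0.220 in Star CSC, against 0.341 and 0.363 in Star parent (−0.70 ± 0.04). It was the 1 of 5 tested dog-numbered miRNAs to pass, of 135 on the array, where 72.7% of all tested miRNAs passed and 36.4% fell. MiR-494, the 1 measured member of 33 miRNAs of the imprinted DLK1-DIO3 region, had 1.57 and 1.68 in Star CSC, against 2.25 and 2.36 in Star parent (−0.50 ± 0.05). MiR-191 (−0.49), miR-197 (−0.50), miR-99b of the mTOR-targeting miR-99 family (−0.47) and miR-93 of the miR-17 seed family (−0.31) also fell, and miR-331 and miR-365, named only to complete the count, were the remaining 2. MiR-99b was measured on 1 Star CSC array and both Star parent arrays, so it entered the test only through Star parent. Its call and that of miR-365 were lost without either Star parent array. The call of miR-197 was lost without either Star CSC array and that of miR-191 without Star CSC replicate 2. Of these, miR-191, miR-197, miR-331, miR-365, miR-494, miR-93 and miR-99b turned positive without scaling, as did miR-23a and miR-23b, and miR-8892, miR-221 and miR-27b with the spike-ins.

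Members of the let-7 family target RAS and HMGA2 transcripts and promote differentiation. With this scaling 6 of 6 tested of 9 on the array rose, where 36.4% of all tested miRNAs rose and 72.7% passed. Their median log2 change was 0.41, against −0.04 over all tested miRNAs. Let-7b had scaled signals of 16.8 and 17.1 in Star CSC, against 14.2 and 14.9 in Star parent (0.22 ± 0.04; limma, adjusted p = 0.0115). Let-7a had 10.3 and 10.8 in Star CSC, against 7.92 and 7.999 in Star parent (0.41 ± 0.03; limma, adjusted p = 0.00253). The Star CSC arrays were the higher ones in both, but the let-7b call was lost without either Star CSC array and without Star parent replicate 1.

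Let-7e had scaled signals of 4.10 and 4.27 in Star CSC, against 3.23 and 3.26 in Star parent (0.37 ± 0.03). Let-7c had 2.01 and 2.21 in Star CSC, against 1.47 and 1.46 in Star parent (0.53 ± 0.06). Let-7f had 1.82 and 2.02 in Star CSC, against 1.43 and 1.46 in Star parent (0.41 ± 0.06), and let-7g 0.319 and 0.327 in Star CSC, against 0.194 and 0.193 in Star parent (0.74 ± 0.03; limma, adjusted p = 0.000484). Groups were separate for each member, as for 81.8% of all tested miRNAs, and the let-7f call was lost without either Star parent array. Summed over the family the scaled signal was 35.5 and 36.7 in Star CSC, against 28.5 and 29.3 in Star parent. Let-7c, let-7e and let-7f were positive under all 8 scalings, while let-7g was −0.12 with normexp, let-7b −0.09 in the software's totals, and let-7a and let-7b were 0 under quantile normalization, which gives the brightest miRNAs the same value on every array. In the software's totals and in the deposited value table, only let-7g of the 6 members kept its call, and the totals put let-7c at 0.22, let-7f at 0.10 and let-7e at 0.06. Members of this family are nearly identical in sequence, and cross-hybridisation between their probes was not tested.

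MiR-15b and miR-16 share a seed and target BCL2. Both were higher, 2 of 2 tested of 7 on the array, where 36.4% of all tested miRNAs rose and 72.7% passed. MiR-15b had scaled signals of 0.849 and 0.902 in Star CSC, against 0.584 and 0.567 in Star parent (0.61 ± 0.05; limma, adjusted p = 0.00212). MiR-16 had 0.237 and 0.246 in Star CSC, against 0.181 and 0.196 in Star parent (0.36 ± 0.06). It was measured on both Star CSC arrays and 1 Star parent array. MiR-16 thus entered the test only through Star CSC, so part of its difference was built in. MiR-15b was positive under all 8 scalings, whereas miR-16 was −0.26 with normexp and its call was lost without either Star CSC array.

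MiR-34a, a p53 target that restrains CD44 in human prostate models, had scaled signals of 1.26 and 1.24 in Star CSC, against 0.979 and 0.976 in Star parent (0.35 ± 0.03; limma, adjusted p = 0.00216). It was positive under all 8 scalings, but its call was lost under quantile normalization (0.15), in the software's totals (0.04) and in the deposited value table (0.28). MiR-21, an oncogenic miRNA that targets PDCD4, had 0.732 and 0.760 in Star CSC, against 0.606 and 0.572 in Star parent (0.34 ± 0.05; limma, adjusted p = 0.00711), but −0.02 with normexp. MiR-103, which targets Dicer, had 0.422 and 0.419 in Star CSC, against 0.352 and 0.331 in Star parent (0.30 ± 0.04), but −0.15 with normexp. The Star CSC arrays were above the Star parent arrays for all 3, and the calls of miR-21 and miR-103 were lost without either Star CSC array.

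Of the 44 miRNAs, 5 were measured on both Star CSC arrays and neither Star parent array, and 0 the other way round. Being measured was called before scaling, on arrays that were 1.69-fold brighter in Star CSC. These 5 miRNAs entered the test only through Star CSC, so a difference was built in. MiR-92a, a member of the miR-17 cluster that the MYC oncoprotein induces, had scaled signals of 0.376 and 0.337 in Star CSC, against 0.166 in each Star parent array. It was at least 1.84-fold higher in Star CSC. MiR-31, a suppressor of metastasis in human breast cancer models, had 0.364 and 0.333 in Star CSC, against 0.0901 and 0.0917 in Star parent, at least 1.80-fold higher. These bounds set the Star CSC mean against the higher of the Star parent signal and the lowest signal well above background on that array.

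MiR-188, from a cluster within CLCN5, had 0.371 and 0.407 in Star CSC, against 0.236 and 0.251 in Star parent. It was 1.60-fold above its own dim Star parent signal, which exceeded the lowest signal well above background, so that here the fold rests on a signal not told from background. MiR-25, from the paralog of the miR-17 cluster within MCM7, had 0.193 and 0.198 in Star CSC, against 0.127 and 0.145 in Star parent, at least 1.01-fold higher. MiR-107, which targets Dicer like miR-103, gave no bound. The call of miR-188 was lost without Star CSC replicate 2 and that of miR-25 without either Star parent array. Of 14 miRNAs of the miR-17 cluster and its paralogs, 3 were tested, with miR-92a and miR-25 higher and miR-93 lower. Values at the floor have no spread, so the adjusted p of miR-31 (0.0014 by limma), miR-92a (0.00153 by limma) and miR-25 hold little measured spread and are too small. With normexp miR-31, miR-92a, miR-188 and miR-25 turned to −0.09, −0.05, −0.10 and −0.26. All 4 lay above the normexp median of the 44 miRNAs (−0.28). The normexp offset is added to every spot and weighs most on such dim miRNAs. Of the 16 rises, 5 were not measured on all 4 arrays (miR-31, miR-92a, miR-188, miR-25 and miR-16). Among the 34 miRNAs measured on all 4 arrays, 26 (76.5%) passed, 11 higher and 15 lower. MiR-378, hosted by PPARGC1B and named here only to complete the count, was the smallest of the 16 rises (0.11).

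The 12 miRNAs that did not pass had log2 changes of −0.40 to 0.15 (limma, adjusted p from 0.0914 to 0.984). MiR-210, induced by hypoxia, had scaled signals of 0.263 and 0.254 in Star CSC, against 0.253 and 0.274 in Star parent (log2 change −0.03, 95% interval −0.19 to 0.13). MiR-30d was at −0.04 and miR-140, hosted by WWP2, at 0.01. Their groups overlapped.

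Lists named for function held rises and falls, as did the tested miRNAs as a whole (36.4% higher and 36.4% lower). Of the tumour-suppressor list 8 of 17 were tested, 4 higher (let-7a, miR-16, miR-31, miR-34a) and 4 lower (miR-22, miR-29a, miR-125b, miR-193a). Of the list linked to breast cancer stem cells 6 of 16 were tested, and miR-34a, let-7a, let-7b and let-7c rose while miR-22 and miR-93 fell. Of the doxorubicin response list 6 of 15 were tested, with 3 higher, 2 lower and 1 that did not pass, and of the oncogenic list 5 of 12, with 2 higher, 1 lower and 2 that did not pass. Of the rises in these lists, miR-16, miR-31, miR-92a and miR-25 entered the test only through Star CSC. Part of their difference was thus built in. The lists share members with each other and with the families.

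Markers of other cells were not measured, nor were 89.2% of all canine miRNAs on the array, so these counts are near what holds for the array as a whole. None of the 5 miR-200 family members, which keep epithelial cells from mesenchymal transition, was well above background on any Star array (0 of 5), and neither were the epithelial (0 of 8), muscle (0 of 7), neural (0 of 8), mesenchymal (0 of 5), endothelial (0 of 1), liver (0 of 1) or pluripotency (0 of 6) lists. The haematopoietic list, with miR-155 and miR-223, was at 0 of 9, with a summed scaled signal of 0.359 and 0.316 in Star CSC, against 0.512 and 0.551 in Star parent. MiR-183 was measured on 1 Star CSC array, as were miR-106a, miR-151 and miR-8833, and miR-1249 on 1 array of each group. These 5 were not tested.

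**Figure D3:**
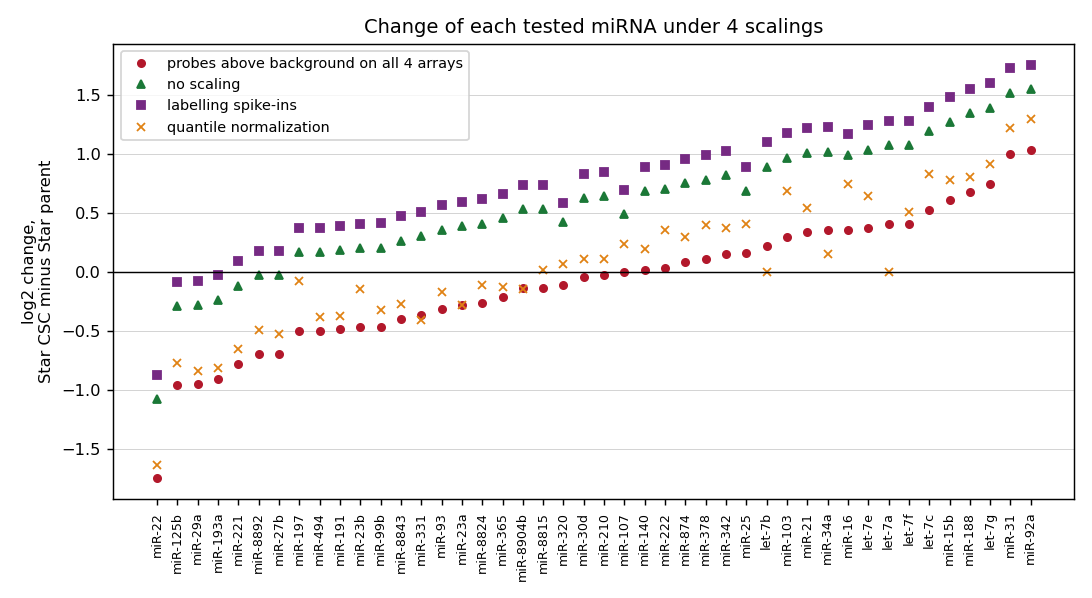
Log2 change of each of the 44 tested miRNAs, Star CSC minus Star parent, under 4 scalings, ordered by the change with the scaling used in the text. Without scaling or with the spike-ins nearly all points move up together, and miR-22 stays below 0 under each.

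No scaling, the spike-ins and all probes move the miRNAs of an array by a common factor, so they change signs but, apart from the floor, not the order. The other alternatives can change the order. Under quantile normalization 14 of the 16 rises lay above the median of the 44 miRNAs (let-7a and let-7b did not). With normexp and in the software's totals 16 of 16 did. Of the 16 falls, 14 lay below the median with normexp (miR-23a and miR-331 did not). Under quantile normalization and in the totals 16 of 16 did. The deposited value table gave the same counts as the totals. Its Star columns are the totals moved by a common factor per array, so it is no separate alternative here. Probes of a miRNA also moved together: of 17 miRNAs with at least 2 probes well above background on all 4 arrays, 16 had all of those probes changed in 1 direction, among them all 14 that passed, and miR-222 was the exception. Probes of a passing miRNA differed in log2 change by at most 0.218. Spots of a probe varied with a median coefficient of variation of 13.7%.

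A ratio of 2 miRNAs on the same array does not depend on the factor by which the array is scaled. They were taken for measured miRNAs whose genes lie within 10 kb of each other or within 1 annotated gene in the dog assembly UU_Cfam_GSD_1.0. A ratio also carries the probes' own brightness, so only its difference between arrays is read, and no test was made. The log2 ratio of let-7c to miR-125b, which lie within 1 annotated long non-coding RNA gene, was 0.01 and 0.12 in Star CSC, against −1.44 and −1.41 in Star parent, a change of 1.49. MiR-125b also has a second locus, which the array cannot separate. The ratio of let-7e to its neighbour miR-99b was 4.28 on Star CSC replicate 1, against 3.57 and 3.62 in Star parent, and on Star CSC replicate 2 miR-99b was not well above background. That of miR-221 to miR-222 was −1.31 and −1.47 in Star CSC, against −0.39 and −0.76 in Star parent.

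For let-7c over miR-125b and for miR-221 over miR-222 the groups were separate by more than the gap between replicates, so these neighbours changed unequally, with miR-221 at the floor on 1 Star CSC array. With normexp the log2 changes of miR-221 and miR-222 lay closer together, at −0.48 and −0.22. The ratio of miR-25 to miR-93, both within MCM7, was also higher on both Star CSC arrays, but its size is not given, since miR-25 was not well above background in Star parent. Smaller shifts were seen for miR-15b over miR-16 (0.25), miR-23b over miR-27b (0.23) and let-7a over let-7b (0.18). For miR-23b over miR-27b and let-7a over let-7b the groups were also separate by more than the gap between replicates. MiR-16 was not well above background on Star parent replicate 1, so its ratio rests partly on a signal not told from background. MiR-15b and miR-16 lie within SMC4, and miR-16 and let-7a have further loci.

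**Figure D4:**
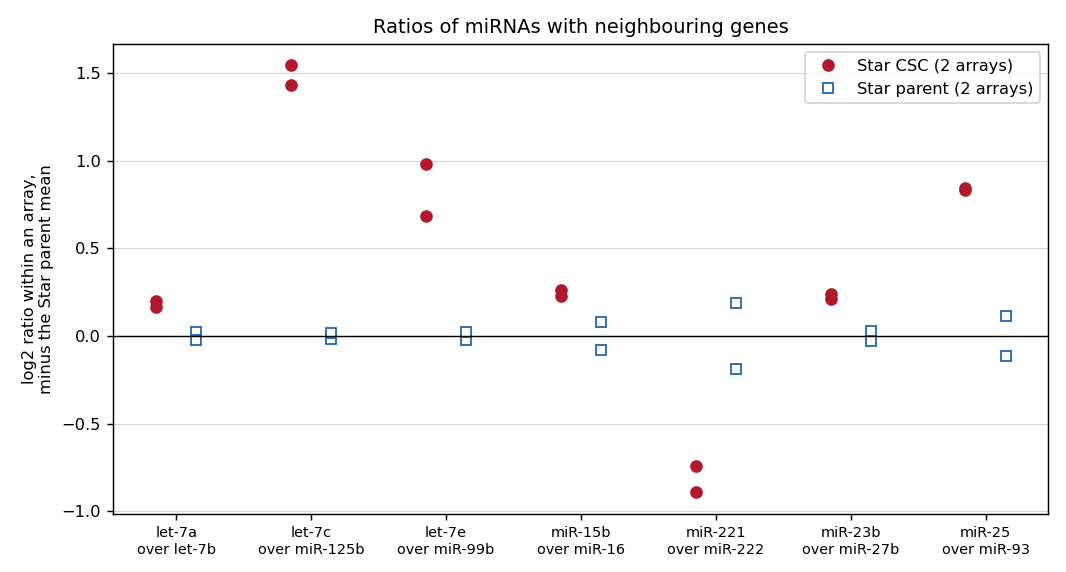
Log2 ratio of neighbouring miRNAs on each array, minus the mean of the 2 Star parent arrays, for 7 pairs (red circles Star CSC, open blue squares Star parent). The 2 groups do not overlap in any pair, and let-7c over miR-125b shows the widest separation. MiR-25 was not well above background in Star parent, nor miR-99b on 1 Star CSC array, nor miR-16 on 1 Star parent array.

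Whether these changes are particular to Star was asked by setting them against the same sort in Stylo. The 2 Stylo parent arrays held identical values and counted as 1 sample, and Stylo CSC replicate 1 lay on another slide. The deposited value table departs from the scanner totals in the columns of Stylo CSC replicate 1 and Stylo parent replicate 2, where 409 and 406 of 454 miRNAs matched and the column medians were 6.15 in each. Over the 7 distinct arrays the difference between the lines' changes passed for 0 of 46 miRNAs (0.0%; limma), while 8 (17.4%) had p below 0.05 before adjustment. On the 6 arrays of slide 1, with 1 Stylo array a group, it passed for 20 of 50 (40.0%), with the change higher in Star for 10 (20.0%) and lower for 10 (20.0%). In the deposited value table it passed for 19 of 56 (33.9%), with the change higher in Star for 10 (17.9%) and lower for 9 (16.1%). The 14 that passed in both rest largely on shared arrays and, in the table, on those 2 columns, so no change is shown here to be particular to Star. Of the 14, miR-22 changed by −1.71 in Star and −0.58 in Stylo on slide 1, and miR-29a by −0.91 in Star and 0.02 in Stylo. Let-7c changed by 0.57 in Star and 0.00 in Stylo, and miR-15b by 0.65 in Star and −0.78 in Stylo. Outside the 14, miR-125b changed by −0.91 in Star and −0.57 in Stylo on slide 1, and miR-193a by −0.86 in Star and −0.68 in Stylo. The Stylo changes on slide 1 have no spread of their own, and the 7-array fit did not pass for any of these miRNAs.

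**Figure D5:**
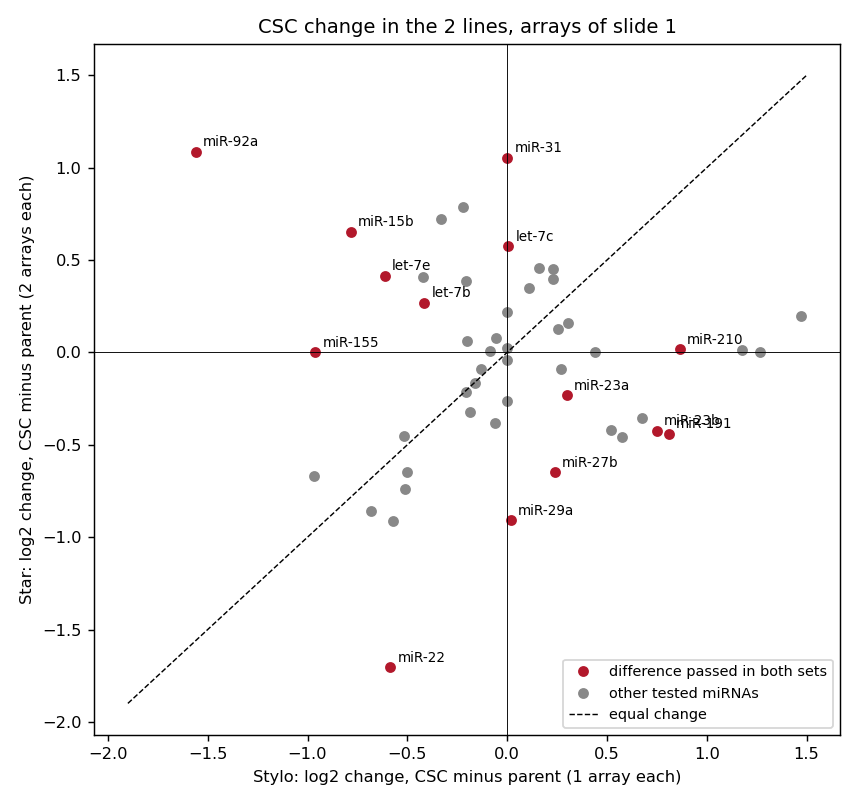
Log2 change of CSC minus parent on slide 1, in Star (vertical axis, 2 arrays a group) and in Stylo (horizontal axis, 1 array a group). Red points are the 14 miRNAs whose difference between lines passed on slide 1 and in the deposited value table, and the dashed line marks equal change. MiR-92a and miR-15b lie above 0 in Star and below 0 in Stylo.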

How the data were processed

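Total RNA was hybridised to 1-colour Agilent miRNA arrays, 1 per sample. The authors' scanner files hold spot intensity values, background-subtracted by Agilent Feature Extraction 11.5.1.1 per the submitters' processing notes and the file headers, with flags for spots well above background and for outliers. The deposited value table gives the software's totals per miRNA as log2 values, centred in a way the labels do not state. In the 4 Star columns its differences equalled those of the scanner totals for all 454 miRNAs (tolerance 0.01).

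From the processed intensities, spots flagged as outliers (3.97% to 9.15% of an array) were dropped, the 10 to 20 spots of a probe were averaged, the 2 to 4 probes of a miRNA were summed, and each array was divided by its 75th percentile over 51 probes. Values under 0.174 (log2 −2.52), the median of the 4 arrays' lowest measured signals, were raised to this floor before log2 was taken. No spot was saturated (0 on each array).

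The groups were tested two-sided in R 4.3.3 with limma 3.58.1 on 2 residual and 1.39 prior degrees of freedom, with Benjamini-Hochberg adjustment over the 44 tested miRNAs. Tables were made with Python 3.11.15 and pandas 2.3.3. The fit was tested on simulated data. The number of arrays limits the precision. Normexp (offset 50) used the median spot signal, since the files hold no mean signal, which differs from the alternative as planned.

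Named are the rises and falls past the threshold with separate groups (at most 12 each, by size), miRNAs measured in 1 group only, and a fixed set of cancer-related miRNAs and let-7 members. MiR-155 and miR-223 of that set were not well above background on any Star array. The members, lists and tests were chosen with earlier results of these data known, and the spike-in scaling was added after seeing the data. Gene neighbours come from RefSeq annotation of UU_Cfam_GSD_1.0, in which all 44 tested miRNAs were matched by name. Mature sequences were not used here.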

Additional observations from a re-analysis of the deposited data

Results flagged for a closer look

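For 14 miRNAs the difference of the CSC change between Star and Stylo passed on the arrays of slide 1 and in the deposited value table, but not over all 7 distinct arrays. The slide 1 fit has 1 Stylo array a group and takes its spread from the Star arrays, and 2 Stylo columns of the deposited table depart from their scanner files, so the difference between the lines is not established. The values are the Star change minus the Stylo change on slide 1, on the log2 scale, from limma. The change was lower in Star for miR-191 (−1.25), miR-23b (−1.17), miR-22 (−1.12), miR-29a (−0.93), miR-27b (−0.89), miR-210 (−0.85) and miR-23a (−0.53). It was higher in Star for let-7c (0.57), let-7b (0.68), miR-155 (0.96), let-7e (1.03), miR-31 (1.05), miR-15b (1.44) and miR-92a (2.65). Over all 7 distinct arrays none of the 14 passed by limma (0 of 46 in all, 8 at an unadjusted p below 0.05), the lowest adjusted p being 0.0897, and there miR-23b and miR-27b had the opposite sign (0.07 and 0.29). MiR-155 was measured on the Stylo parent array and on no Star array, so its value rests on that 1 array. MiR-191 and miR-210 lay at the floor on the Stylo parent array, miR-31 on every array but those of Star CSC, and miR-92a on both Star parent arrays, so the floor sets the size of these 4 differences. Groups of 2 arrays are too small to single out an outlying array.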

How the results depend on the processing

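The 32 calls of Star CSC against Star parent became 0 with scaling over all probes. With all distinct arrays of both lines in 1 fit there was 1, miR-31, which lay at the floor on both Star parent arrays. There were 2 when a fold of at least 2 was also required, with either the adjusted or the unadjusted p. Under the other alternatives the count lay between 25 (the deposited value table) and 39, and without 1 array in turn between 24 and 27, with 18 of the 32 calls kept whichever array was left out. For the difference between the lines, 0 of 46 became 20 on the arrays of slide 1, 19 in the deposited value table and 3 without scaling. Without 1 array in turn it ranged from 0 to 33, with 31 without Stylo CSC replicate 1 and 33 without Stylo CSC replicate 2. The Stylo parent array could not be left out, being the only one of its group.

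Replicate numbers are shared between Star CSC and Star parent. With the replicate number as a block 33 miRNAs passed, 31 of them among the 32 calls, and for the difference between the lines 0 passed. Deviations of same-numbered arrays correlated at 0.158 over 34 miRNAs, which 2 numbers cannot establish as pairing.

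Of the changes of named miRNAs over all alternatives, 559 kept direction and side of the threshold, 111 lost the call, 13 gained one and 58 changed sign. Without scaling miR-191 was at 0.18, miR-197 0.17, miR-210 0.64, miR-23a 0.39, miR-23b 0.20, miR-30d 0.63, miR-494 0.17, miR-93 0.36 and miR-99b 0.20. With scaling over all probes miR-191 was at 0.42, miR-197 0.40, miR-210 0.88, miR-221 0.12, miR-23a 0.63, miR-23b 0.43, miR-27b 0.21, miR-30d 0.86, miR-494 0.40, miR-8892 0.21, miR-93 0.59 and miR-99b 0.44. With the spike-ins miR-191 was at 0.39, miR-197 0.37, miR-210 0.85, miR-221 0.0904, miR-23a 0.60, miR-23b 0.40, miR-27b 0.18, miR-30d 0.83, miR-494 0.38, miR-8892 0.18, miR-93 0.56 and miR-99b 0.41. With normexp let-7g was at −0.12, miR-103 −0.15, miR-107 −0.31, miR-140 −0.29, miR-16 −0.26, miR-188 −0.10, miR-21 −0.0187, miR-222 −0.22, miR-25 −0.26, miR-31 −0.0916 and miR-92a −0.0453. In the software totals let-7b was at −0.0853 and miR-222 at −0.28, and in the deposited table miR-210 at 0.0858 and miR-222 at −0.0366. Under quantile normalization miR-210 was at 0.11 and miR-30d at 0.11. With all distinct arrays in 1 fit miR-210 was at 0.0867 and miR-30d at 0.0749, and on slide 1 at 0.0173 and 0.00551. With the mean of log2 probes miR-140 was at −0.0204. Without 1 array in turn miR-140 lay between −0.0521 and 0.0801, miR-210 between −0.0872 and 0.0266 and miR-30d between −0.103 and 0.0186. The cause of these changes was not tested.

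Without a filter, miRNAs at the floor on all 4 arrays could not be tested and 55 remained. Signals near background limit what the 405 unmeasured miRNAs can show, and 2 arrays a group limit every error. Positions on the slide follow the groups.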
